A study of Mus musculus with 12 samples.

Results

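Expression of mRNA for 9 genes of growth factor signalling was described in the mouse oviduct. The set held 6 ligands, namely Fgf1, Fgf18, Pdgfc, Pdgfd, Vegfd (listed in the study under its older name Figf) and Bmp5. It also held the receptors Pdgfra and Met, and Fgfrl1, an FGF-binding membrane protein related to the FGF receptors. The genes were taken by symbol from the study's list of changed genes. They were chosen by the measured difference between PMSG-treated ESR1KO and PMSG-treated WT oviducts, so that difference is given below as a description with no test. They are 9 of 18162 gene symbols on the array and 9 of the 1818 genes whose values were traced in all 12 arrays. Each gene is given by 1 probe set.

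ESR1KO mice lacked the estrogen receptor ESR1 in the whole body (ESR1-/-, with or without the Zp3Cre transgene). Sibling controls, called WT, were ESR1flox/- with or without Zp3Cre, so that every mouse carried at least 1 deleted copy of ESR1. The Zp3 promoter drives Cre recombinase in the oocyte, all mice were females of C57BL/6 background, and RNA came from whole oviducts. Untreated mice were killed at 23 days of age. PMSG-treated mice of both genotypes were given 5 IU of pregnant mare serum gonadotropin, a hormone that stimulates ovarian follicles and thereby estradiol secretion, at 23 days of age and were killed 48 h later. The effects of PMSG and of the added 48 h of age cannot be told apart. Each of the 4 groups had 3 Affymetrix arrays, and each array held RNA pooled from 3 to 4 mice, with different mice in each replicate. In whole-organ RNA, fewer cells of a type and less RNA per cell cannot be told apart.

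FGFs, PDGFs, VEGFs and hepatocyte growth factor signal through receptor tyrosine kinases, and BMPs through receptor serine/threonine kinases. FGF18 and FGF1 bind FGF receptors, and FGF1 differs from FGF18 in lacking a signal peptide. PDGF-CC acts mainly through PDGFRA, a receptor typical of fibroblasts and other mesenchymal cells, and PDGF-DD mainly through PDGFRB. VEGF-D is a ligand of VEGFR3, known for lymphatic growth. MET is the epithelial receptor of hepatocyte growth factor. In female reproductive organs several of these ligands are known as signals between stroma and epithelium.

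To place the genes in the genome, the promoter is shown for Fgf18 and Vegfd, which had the largest higher and lower differences between untreated ESR1KO and WT, and for Met, whose promoter held the most kinds of motif. The sequences are the bases just before the RefSeq transcription start site on GRCm38.p6, written 5′ to 3′ on the strand of the gene. Capitals mark matches to 4 motifs searched on both strands. The first is the estrogen response element, which is GGTCA, then 3 bases of any kind, then TGACC. The others are its arm TGACC alone, the AP-1 motif TGANTCA and the GC box GGGCGG.
Fgf18: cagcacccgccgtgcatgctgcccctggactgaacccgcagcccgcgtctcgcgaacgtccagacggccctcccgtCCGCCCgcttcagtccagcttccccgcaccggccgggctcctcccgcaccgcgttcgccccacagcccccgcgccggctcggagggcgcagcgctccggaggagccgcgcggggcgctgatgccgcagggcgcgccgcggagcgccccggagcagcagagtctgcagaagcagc
Vegfd: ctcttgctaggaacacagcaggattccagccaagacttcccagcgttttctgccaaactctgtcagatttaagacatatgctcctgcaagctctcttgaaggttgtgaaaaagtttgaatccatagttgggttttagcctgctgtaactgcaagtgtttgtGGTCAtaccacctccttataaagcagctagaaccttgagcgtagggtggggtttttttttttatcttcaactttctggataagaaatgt
Met: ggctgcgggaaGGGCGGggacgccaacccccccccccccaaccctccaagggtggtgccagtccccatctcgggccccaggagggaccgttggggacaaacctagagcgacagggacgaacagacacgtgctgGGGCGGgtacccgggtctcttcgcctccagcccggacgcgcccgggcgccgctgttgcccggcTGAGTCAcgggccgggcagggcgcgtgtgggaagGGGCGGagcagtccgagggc
These windows lie at chr11:33147401-33147650 (minus strand) for Fgf18, chrX:164373272-164373521 (plus strand) for Vegfd and chr6:17463707-17463956 (plus strand) for Met. The motifs were searched in windows of 300 bases that run on past the start site, in the 8 of the 9 genes with a promoter entry. Over those windows the full estrogen response element was in 0 of 8 promoters and in 0.07% of all 32851 promoters. Its arm TGACC, which is part of the full element, was in 3 of 8 (Met, Pdgfd and Vegfd) and in 40.5% of all promoters. In Met it began at base 30 after the start site, and in Vegfd at position -89 from it and again at 35, so that of these the letters shown hold the Vegfd match at -89, which reads GGTCA on this strand. TGANTCA was in Met alone of the 8 and in 7.81% of all, and GGGCGG was in Fgf18, Fgfrl1 and Met and in 35.7% of all. The GC content ran from 42.0% for Vegfd and 43.3% for Bmp5 to 75.7% for Met and 78.7% for Fgf18, against a median of 52.7% over all promoters. A match is a run of letters and was not tested as a binding site.

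Values are log2 signals, on which a difference of 1 is 2-fold, and a group mean under 4 was taken as near background. Array medians ranged from 5.63 to 5.75. Levels are compared for 1 gene between groups and never between genes. In limma, a difference of at least 2-fold with an adjusted p below 0.05 is termed called. For comparisons that include untreated ESR1KO, 1997 located probe sets were tested but adjusted as for all 45101 on the array, so their adjusted p is an upper bound and a gene not called is not shown to be unchanged. Beforehand, the libraries were compared with their labels. Esr1 itself had log2 signals of 10.42, 12.13 and 11.05 in ESR1KO and 12.94, 12.92 and 13.05 in WT (log2 difference -1.77, adjusted p = 0.0404, limma), but whether this probe set lies in the deleted part of the gene was not given, so it does not check the genotype. Pgr, the progesterone receptor gene and a known estrogen target, had 11.18, 11.97 and 11.32 in ESR1KO and 12.58 to 12.61 in WT (log2 difference -1.10, adjusted p bound 0.0505). ESR1KO replicate 2 had the highest Esr1 and Pgr of its group, and over the located probe sets it lay closer to WT on the first principal component (-19.81) than ESR1KO replicates 1 and 3 (-32.89 and -34.54), and leaving it out kept the number of genes called in ESR1KO versus WT at 4. In untreated ESR1KO all 6 epithelial markers (Ovgp1, Pax8, Epcam, Cdh1, Krt8 and Krt18) and all 4 markers of ciliated cells had signals of at least 4. Of 6 ovarian markers on the array 5 were under 4, and the other, Inha, had 7.83, 8.07 and 8.22. No ovarian marker was located in the other groups.

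Without PMSG, 7 of the 9 genes had higher values in ESR1KO and 2, Fgfrl1 and Vegfd, had lower values than in WT. Fgf18, Pdgfc and Pdgfra rose and Vegfd fell, which made 4 of 9 called, beside 18.1% of the 1997 located probe sets (9.11% higher and 9.01% lower). The median log2 difference of the 9 was 0.92, beside 0.15 over all located probe sets. The 3 arrays of each group did not overlap for 8 of the 9 genes, beside 78.5% of located probe sets. The located probe sets are those that passed the study's overall model on these same 12 arrays, so these shares are those of a list chosen as changed. Untreated ESR1KO and WT arrays were not the arrays of the contrast that chose the genes, but they entered that overall model. The 9 genes passed it too, and were picked further for their genotype difference after PMSG. The comparison is therefore not independent of the choice, and the located probe sets are not a matched background.

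**Figure D1:**
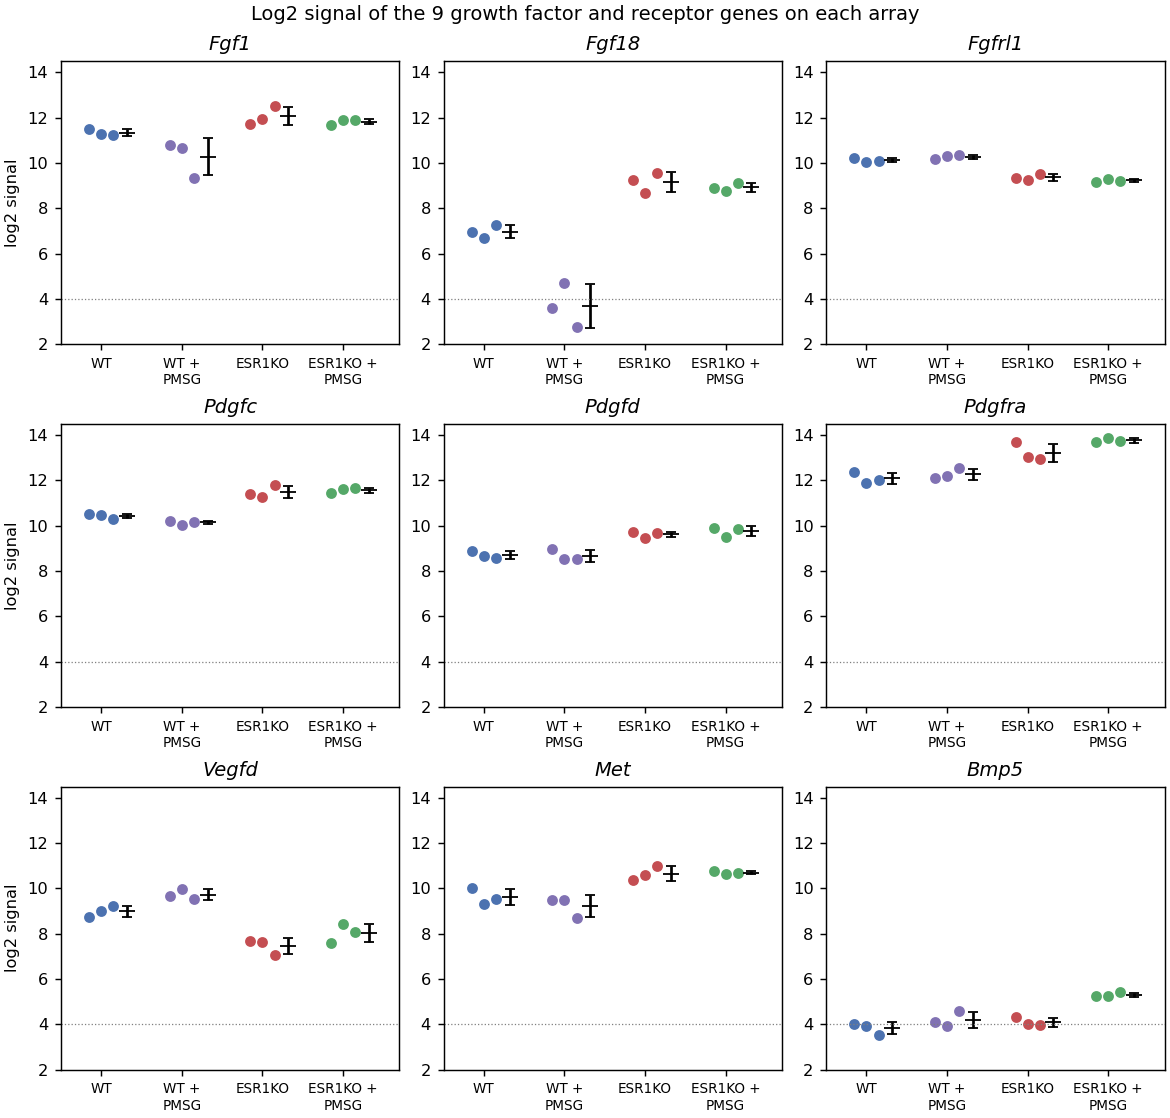
Log2 signal of each of the 9 genes on the 12 arrays, 1 panel per gene, with the groups along the horizontal axis. Points are arrays in replicate order, the black mark and bars are the group mean ± SD (n = 3), and the dotted line is the near-background level of 4; Fgf18 in PMSG-treated WT (2.76 to 4.69) stood below its other groups.

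Among the FGF ligands, Fgf18 had the largest genotype difference of the 9 genes. Its log2 signal was 9.26, 8.66 and 9.56 in the 3 ESR1KO arrays and 6.96, 6.68 and 7.25 in the 3 WT arrays. The groups were far apart, with the lowest ESR1KO array above the highest WT array. ESR1KO exceeded WT by 2.20 ± 0.42 (SE) on the log2 scale, or 4.59-fold, with an adjusted p = 0.0344 (limma). Leaving out 1 array ended the call (adjusted p from 0.0569 to 0.188) unless the array was ESR1KO replicate 2, PMSG-treated WT replicate 2 or PMSG-treated WT replicate 3, while over all alternatives the log2 difference stayed between 2.00 and 2.45.

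Fgf1 was less clear. Its log2 signal was 11.74, 11.95 and 12.52 in ESR1KO and 11.50, 11.29 and 11.23 in WT. All ESR1KO arrays were above all WT arrays, but the ESR1KO arrays were spread over a wider range than the gap between the means. On the log2 scale the means differed by 0.73 ± 0.33 (SE; the 95% confidence interval just included 0 and reached 1.46; adjusted p bound 1, limma), and it was not called.

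Fgfrl1, the FGF-binding protein that lacks the kinase domain of the FGF receptors, had the opposite direction. Its log2 signal was 9.36, 9.23 and 9.54 in ESR1KO against 10.23, 10.07 and 10.08 in WT. The replicates lay close together and the groups did not overlap. This gave a log2 difference of -0.75 ± 0.11 (SE), or 1.68-fold lower, with an adjusted p = 0.0128 (limma), so that it passed the p limit but not the 2-fold minimum.

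The PDGF genes were all higher in ESR1KO. Pdgfra, the receptor, had log2 signals of 13.68, 13.02 and 12.94 in ESR1KO and 12.37, 11.91 and 11.9998 in WT. ESR1KO replicate 1 stood above the other ESR1KO arrays, and no ESR1KO array reached down to the WT arrays. This was a log2 difference of 1.12 ± 0.20 (SE), or 2.18-fold, with an adjusted p = 0.0270 (limma). Without ESR1KO replicate 1 the difference was 0.89, under 2-fold (adjusted p = 0.0671). The call was also lost without WT replicate 2, WT replicate 3 or PMSG-treated ESR1KO replicate 3 (adjusted p = 0.158, 0.129 and 0.0542).

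Pdgfc, the ligand of that receptor, had log2 signals of 11.40, 11.29 and 11.78 in ESR1KO and 10.50, 10.48 and 10.31 in WT. The groups did not overlap. The means were apart by a log2 difference of 1.06 ± 0.14 (SE), or 2.09-fold, with an adjusted p = 0.00531 (limma), the lowest of the 9 genes. Without ESR1KO replicate 3 it was 0.91, under 2-fold, still with an adjusted p of 0.0171. Pdgfd, a ligand mainly of PDGFRB, had log2 signals of 9.71, 9.48 and 9.68 in ESR1KO and 8.88, 8.67 and 8.56 in WT. These groups did not overlap either. The log2 difference was 0.92 ± 0.17 (SE), or 1.89-fold (adjusted p = 0.0293, limma), under the 2-fold minimum.

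Met had log2 signals of 10.36, 10.58 and 11.001 in ESR1KO and 10.01, 9.32 and 9.52 in WT. The lowest ESR1KO array was only just above the highest WT array. The log2 difference was 1.04 ± 0.25 (SE), or 2.05-fold (adjusted p bound 0.129, limma), and it was not called, although it was called without PMSG-treated WT replicate 3 (adjusted p = 0.0206), an array that enters the comparison through the shared variance alone.

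Vegfd was the ligand that fell. Its log2 signal was 7.68, 7.65 and 7.04 in ESR1KO and 8.73, 9.005 and 9.24 in WT. All 3 ESR1KO arrays were below all 3 WT arrays. ESR1KO differed from WT by -1.53 ± 0.25 (SE) on the log2 scale, or 2.89-fold lower, with an adjusted p = 0.0157 (limma). The call was lost without ESR1KO replicate 3, WT replicate 2 or WT replicate 3 (adjusted p = 0.0699, 0.0875 and 0.0870).

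Bmp5, a ligand of BMP receptors, lay at the near-background level in both groups, with log2 signals of 4.31, 4.02 and 3.96 in ESR1KO and 4.04, 3.95 and 3.53 in WT. It was the gene of the 9 whose groups overlapped. The log2 difference was 0.25, with a 95% confidence interval of -0.22 to 0.72, so that a 2-fold difference lay outside the interval on this scale, which compresses weak signals.

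Of the fixed pathway lists, which held 119 genes, 114 were on the array and 26 were located, among them the 9 genes described. Across these 26, 7 rose and 3 fell in ESR1KO versus WT and 16 were not called, with a median log2 difference of 0.82. Of the located probe sets, 9.11% were called higher and 9.01% lower, and their median log2 difference was 0.15. The 26 include the 9 chosen genes, and a list gene was located only if the study listed it as changed. List genes that were not located are left out of these counts. Of the 17 that were not among the 9 genes, 4 rose (Angpt4, Fgfbp1, Flrt2 and Bmper), 2 fell (Flt1 and Nrp2) and 11 were not called. The lists were searched in the part of the study's list that was held here, which ends at Slc27a2 in alphabetical order. Of the 114 genes on the array, 20 sort after it and could not have been found.

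**Figure D2:**
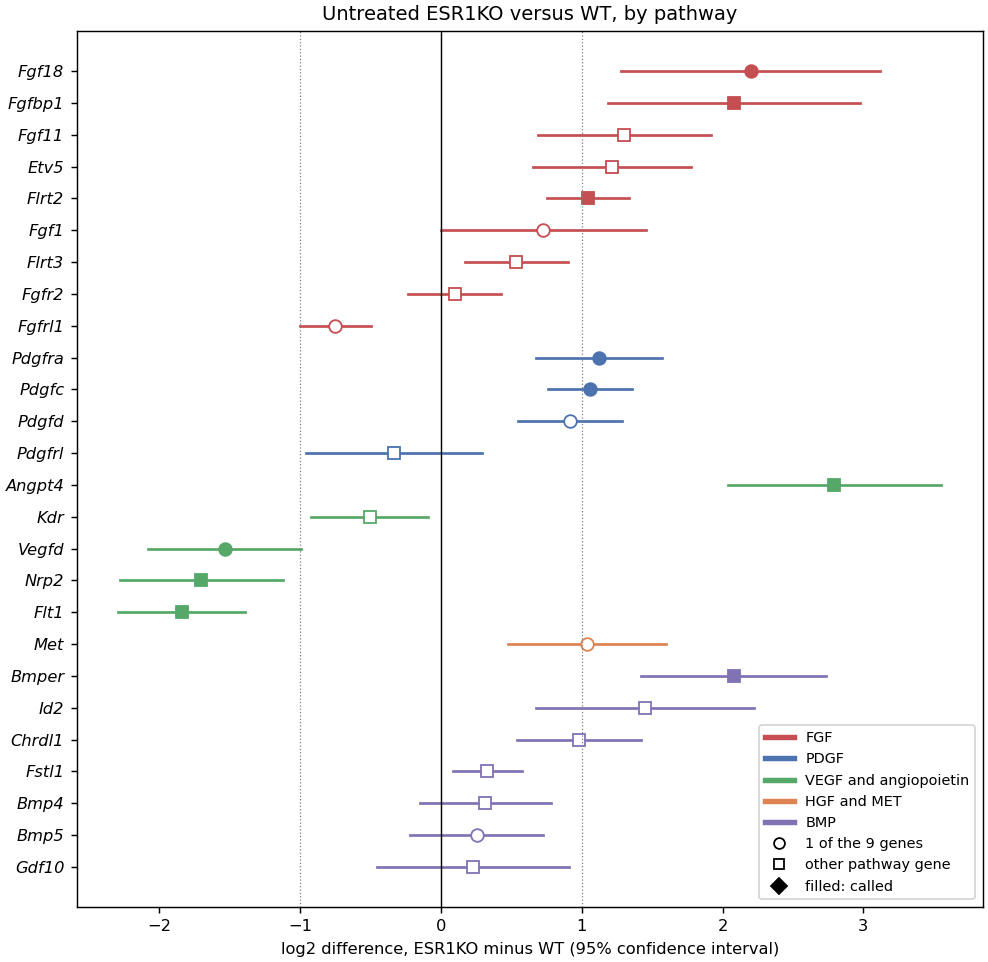
Log2 difference between untreated ESR1KO and WT (horizontal axis, with 95% confidence interval) for the 26 located pathway genes, coloured by pathway. Circles are the 9 genes, squares are the other 17, filled marks were called and dotted lines mark 2-fold; the FGF and PDGF genes lay mostly to the right of 0, and Vegfd, Nrp2 and Flt1 to the left.

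In the FGF list, 9 genes were located, and 3 rose, 0 fell and 6 were not called. Fgfbp1, a secreted carrier that releases FGFs from the matrix, rose from a near-background log2 signal of 3.35 ± 0.30 (SD, n = 3) in WT to 5.43 ± 0.72 in ESR1KO (log2 difference 2.08, adjusted p = 0.0400, limma). That call was lost when any 1 of 8 arrays was left out (adjusted p of at least 0.0649, and 0.179 without WT replicate 3). Flrt2, a membrane protein that binds FGF receptors, rose from 9.20 ± 0.12 to 10.25 ± 0.21 (log2 difference 1.04, adjusted p = 0.00524). It was under the 2-fold minimum without ESR1KO replicate 3 or WT replicate 1 (adjusted p = 0.0246 and 0.0277). Fgf11, an FGF family member that stays in the cell, had a log2 difference of 1.30 and an adjusted p bound of 0.0647. Etv5, a transcription factor induced by FGF signalling, had 1.21 and 0.0565, and each of these passed under some alternatives. Flrt3, a relative of Flrt2, differed by 0.54 (adjusted p bound 0.359). Fgfr2, which encodes an FGF receptor, had log2 signals of 11.59 ± 0.26 in ESR1KO and 11.50 ± 0.08 in WT, a difference of 0.10 (95% confidence interval -0.23 to 0.43).

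In the PDGF list, 4 genes were located and 2 rose. Pdgfrl, named for its resemblance to PDGF receptors, was the fourth, and its log2 difference was -0.33 (adjusted p bound 1). In the VEGF and angiopoietin list 5 genes were located, of which 1 rose and 3 fell. Flt1, which encodes VEGFR1, fell from 4.78 ± 0.44 to 2.94 ± 0.07 (log2 difference -1.84, adjusted p = 0.00281). This probe set was near background in ESR1KO, as were 2 others of Flt1, while another that was not located in WT had 6.26, 5.84 and 4.45 in the same ESR1KO arrays. Nrp2, a co-receptor of VEGFR3, fell from 8.57 ± 0.20 to 6.87 ± 0.61 (log2 difference -1.70, adjusted p = 0.0129), a call lost without ESR1KO replicate 1, WT replicate 2 or WT replicate 3 (adjusted p = 0.0512, 0.0804 and 0.0727). Kdr, which encodes VEGFR2, differed by -0.51 (adjusted p bound 0.818). Angpt4, a ligand of the TEK receptor, rose from 4.04 ± 0.06 to 6.84 ± 0.50 (log2 difference 2.79, 6.94-fold, adjusted p = 0.00490), and it was called under all alternatives run.

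In the BMP list 7 genes were located and 1 rose. Bmper, a secreted BMP-binding protein, went from 6.27 ± 0.17 to 8.35 ± 0.27 (log2 difference 2.08, adjusted p = 0.00890), and the call was lost without WT replicate 2 or 3 (adjusted p = 0.0593 and 0.0521). Chrdl1, a BMP antagonist, passed the p limit at 1.97-fold (adjusted p = 0.0481). The ligands Bmp4 and Gdf10 differed by 0.32 and 0.23, the secreted protein Fstl1 by 0.33 and the target gene Id2 by 1.45, and none of these 4 was called (adjusted p bounds from 0.122 to 1), although Id2 was called without WT replicate 1 (log2 difference 1.84, adjusted p = 0.0379). Met was the single located gene of the HGF and MET list.

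Markers of cell types were set beside these genes, but a marker could be located only if the study listed it as changed. Located markers were thus bound to differ between some groups, and they do not stand for all markers of a cell type. Cdh5, Eng, Cldn5, Col1a1, Col3a1, Dcn, Acta2, Myh11, Cnn1 and Des sort within the held part of the list and were not located. Beside Vegfd, Flt1 and Nrp2, 3 of the 8 blood endothelial markers were located, and their summed signal was lower in ESR1KO (log2 9.34 to 9.65) than in WT (10.44 to 10.79). Of these, Pecam1 fell by 3.24 and Emcn fell by 1.57 on the log2 scale (adjusted p = 0.0158 and 0.0157), and Esam differed by -0.55 (adjusted p bound 0.0977). In untreated ESR1KO 7 of the 8 endothelial markers had signals of at least 4, and Tie1 was under it. None of the 4 lymphatic markers was located, and Prox1 was under 4 in untreated ESR1KO. Beside the PDGF genes, 2 of 5 stromal markers were located, and both went the other way, with a summed log2 signal of 8.92 to 10.59 in ESR1KO and 11.52 to 12.54 in WT. Lum fell by 2.44 and this Col1a2 probe set fell by 2.34 (adjusted p = 0.0225 and 0.0337); other Col1a2 probe sets, not located in WT, had signals of 13.33 and 14.01 in ESR1KO. Actg2, the 1 of 6 smooth muscle markers that was located, fell by 2.26 (adjusted p = 0.0458, limma). After PMSG the endothelial sums were 9.88 to 10.18 in ESR1KO and 10.17 to 10.36 in WT. Emcn (log2 difference -0.31) and Esam (0.08) then overlapped between the genotypes, as did Flt1 (-0.13) and Kdr (-0.23). Pecam1 (-1.26), Vegfd (-1.68) and Nrp2 (-1.42) did not overlap, but Vegfd was chosen by this same contrast. The stromal sums after PMSG were 9.44 to 9.90 in ESR1KO and 11.50 to 12.33 in WT. The part of cell composition in the growth factor results was not tested.

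With PMSG, Fgf18 in WT oviducts was the 1 gene of the 9 that was called. Its log2 signal was 6.96, 6.68 and 7.25 in WT and 3.58, 4.69 and 2.76 in PMSG-treated WT. All PMSG-treated arrays were below all untreated ones, and PMSG-treated WT replicates 1 and 3 were under 4. PMSG-treated WT differed from WT by -3.28 ± 0.43 (SE) on the log2 scale, or 9.75-fold lower on a scale that compresses weak signals (adjusted p = 0.0253, limma over 45101 probe sets). The share of probe sets called was 0.251% over the whole array (0.177% higher and 0.0732% lower) and 3.81% of those located. These arrays include the PMSG-treated WT arrays of the contrast that chose the genes, so the difference is not independent of the choice. The call was lost without any 1 of the WT or PMSG-treated ESR1KO arrays or PMSG-treated WT replicate 1 (adjusted p from 0.0522 to 0.123).

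The other 8 genes were not called with PMSG in WT. For 4 of the 9 genes, Fgf18 included, the arrays of WT and PMSG-treated WT did not overlap, beside 13.5% of all probe sets. The 9 genes came from a list of changed genes and were chosen with the PMSG-treated WT arrays. The share over all probe sets is therefore not a matched one, and the share over located probe sets was not computed. Fgf1 had log2 signals of 10.81, 10.68 and 9.36 in PMSG-treated WT, all below the WT arrays, with a log2 difference of -1.06 (adjusted p = 0.308). PMSG-treated WT replicate 3 was far below the other arrays, and without it the difference was -0.60 (adjusted p = 0.0717). Vegfd had log2 signals of 9.65, 9.99 and 9.53, all above the WT arrays, with a difference of 0.73 (adjusted p = 0.328). Pdgfc, at 10.21, 10.05 and 10.18, lay just below its WT arrays, with a difference of -0.28 (adjusted p = 0.454). For Fgfrl1, Pdgfd, Pdgfra, Met and Bmp5 the groups overlapped, and the log2 differences ranged from -0.38 for Met to 0.36 for Bmp5. None of the other 17 pathway genes was called, and the lowest adjusted p were 0.0674 for Pdgfrl (log2 difference -1.77) and 0.0853 for Flt1 (-1.20). Pdgfrl was called with a mean signal of at least 4 (adjusted p = 0.0387), with a replicate block (0.0461) and without PMSG-treated WT replicate 3 (log2 difference -1.46, adjusted p = 0.0332).

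In ESR1KO oviducts PMSG gave 0 of 9 calls in limma, and 3 genes had an unadjusted p under 0.05; the share of located probe sets called was 0.1%. Here too the PMSG-treated arrays were those of the contrast that chose the genes. Fgf18 had log2 signals of 8.90, 8.76 and 9.13 in PMSG-treated ESR1KO, within the range of the untreated ESR1KO arrays. The log2 difference was -0.23, with a 95% confidence interval of -1.15 to 0.69, which does not reach the difference seen in WT. Bmp5 was the gene of the 9 whose untreated and PMSG-treated ESR1KO arrays did not overlap, beside 21.5% of located probe sets, with 5.25, 5.25 and 5.42 after PMSG. Its log2 difference was 1.21 (95% confidence interval 0.74 to 1.68), with an adjusted p bound of 0.659 (limma). The other 2 genes were Pdgfra, with 13.68, 13.88 and 13.73 after PMSG and a difference of 0.55 (0.11 to 0.99), and Vegfd, with 7.61, 8.42 and 8.10 and a difference of 0.58 (0.04 to 1.13). The groups of both overlapped, for Pdgfra only through ESR1KO replicate 1 (13.6825, beside 13.6821 in PMSG-treated ESR1KO replicate 1). Beside these, the markers Col1a2, Pecam1 and Emcn had log2 differences of 1.55, 1.55 and 0.94 with PMSG in ESR1KO (adjusted p bound 1 for each). The other located markers, Actg2, Esam and Lum, had 1.00, 0.33 and 0.07. The groups overlapped for Pecam1, Actg2 and Lum, and none of these markers was called. The part of the markers in the growth factor values was not tested.

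**Figure D3:**
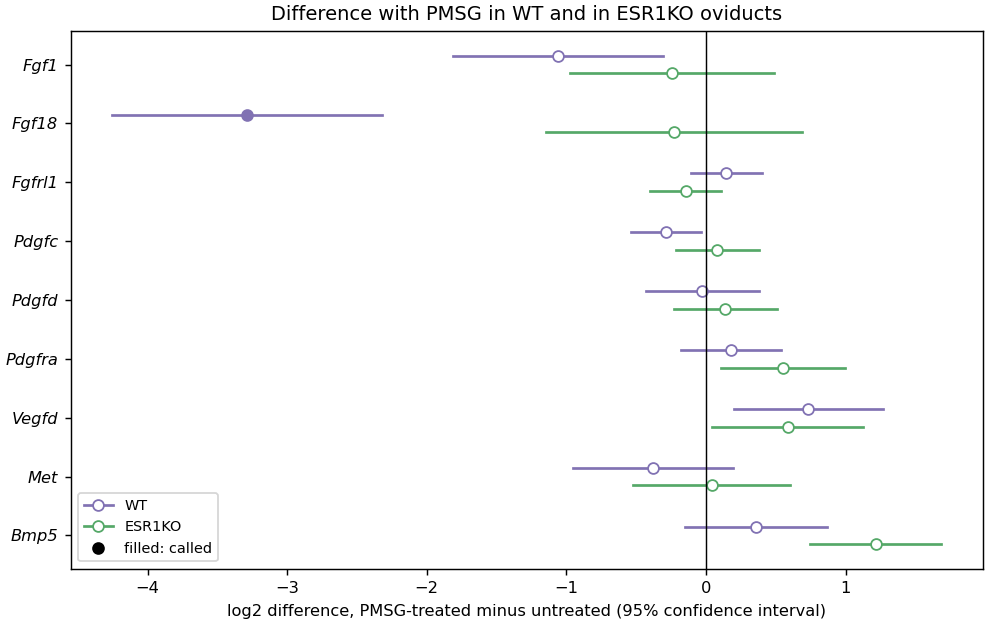
Log2 difference between PMSG-treated and untreated oviducts (horizontal axis, with 95% confidence interval) of the 9 genes, in WT and in ESR1KO. Filled points were called; Fgf18 in WT, at -3.28, was the 1 called difference, and Bmp5 in ESR1KO, at 1.21, lay farthest to the right.

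Whether PMSG acted differently in the genotypes was fitted as an interaction, which needed no fold minimum. It contains the PMSG-treated difference between genotypes that chose the genes, so for them it is not independent of the choice. In limma 0 of the 9 genes were called and 2 had an unadjusted p under 0.05, and 0.651% of located probe sets were called. For Fgf18 the response differed by 3.05 (95% confidence interval 1.75 to 4.36; adjusted p bound 0.204), less negative in ESR1KO, a size that rests on PMSG-treated WT signals near background and is therefore uncertain. It was called without PMSG-treated WT replicate 2, the highest of its group (3.56, adjusted p = 0.0470), and under no other alternative run. For Bmp5 the response differed by 0.86 (0.19 to 1.52; adjusted p bound 1). For the other 7 genes the interval included 0. None of the other 17 pathway genes was called for the interaction or for PMSG in ESR1KO. For the interaction, Flt1 (1.71, adjusted p bound 0.135, limma) and Pdgfrl (2.11, bound 0.195) had lower bounds than Fgf18. Flt1 was near background in all groups but WT.

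**Figure D4:**
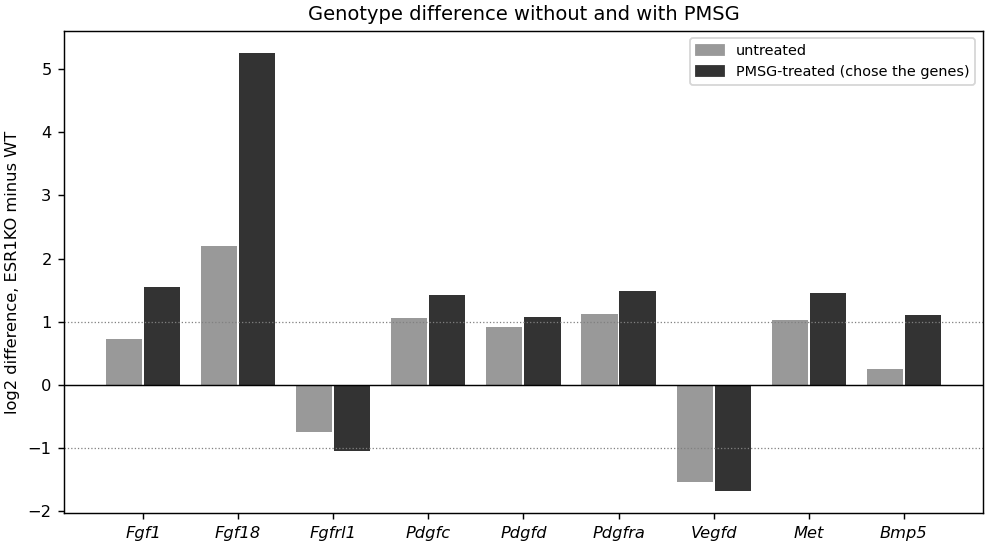
Log2 difference between ESR1KO and WT (vertical axis) of the 9 genes without PMSG (grey bars) and with PMSG (black bars), with dotted lines at 2-fold. Only the untreated difference was tested; the PMSG-treated difference chose the genes, and Fgf18 stood out in both, at 2.20 and 5.25.

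The contrast that chose the genes is given as a description. After PMSG, all 9 genes were at least 2-fold apart between ESR1KO and WT, as were 7.63% of all probe sets, and the arrays of all 9 did not overlap, as for 19.6% of all probe sets. Fgf18 differed by 5.25 (38.2-fold, against the near-background PMSG-treated WT arrays). Fgf1 differed by 1.54, Pdgfra by 1.49, Met by 1.46, Pdgfc by 1.43, Bmp5 by 1.11, Pdgfd by 1.08, Fgfrl1 by -1.04 and Vegfd by -1.68. Just inside 2-fold lay Fgfrl1 and Pdgfd, and just outside it, among located pathway genes, lay Bmp4 (0.99) and Etv5 (0.91). Without PMSG-treated WT replicate 3 the difference of Fgf1 was 1.08, and without PMSG-treated WT replicate 2 or 3 the number of genes at 2-fold was 8. Pdgfd had 9.91, 9.52 and 9.84 in PMSG-treated ESR1KO and 8.97, 8.55 and 8.51 in PMSG-treated WT. Pdgfra had 12.10, 12.18 and 12.54 in PMSG-treated WT. For both genes the genotypes lay apart after PMSG as they did without it. Fgfrl1 likewise had 9.17, 9.31 and 9.21 in PMSG-treated ESR1KO and 10.16, 10.30 and 10.35 in PMSG-treated WT.

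Met had 10.77, 10.63 and 10.67 in PMSG-treated ESR1KO and 9.51, 9.51 and 8.68 in PMSG-treated WT. Pdgfc had 11.45, 11.60 and 11.66 in PMSG-treated ESR1KO, and Fgf1 11.69, 11.91 and 11.88, both above all their WT arrays. Bmp5 had 4.11, 3.91 and 4.57 in PMSG-treated WT, below all 3 PMSG-treated ESR1KO arrays.

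Ordered by mean level, the 4 groups fell into a few patterns. For Fgf18 and Fgf1 the order from low to high was PMSG-treated WT, WT, PMSG-treated ESR1KO and ESR1KO, with overlap only between the ESR1KO groups. For Pdgfc and Met it was PMSG-treated WT, WT, ESR1KO and PMSG-treated ESR1KO, with overlap between the ESR1KO groups for both, and between the WT groups for Met. Pdgfd had that order too, with overlap within each genotype. For Pdgfra it was WT, PMSG-treated WT, ESR1KO and PMSG-treated ESR1KO, again with overlap within each genotype. Between the ESR1KO groups that overlap rested on ESR1KO replicate 1 alone. Fgfrl1 ran from PMSG-treated ESR1KO through ESR1KO and WT to PMSG-treated WT, and Vegfd from ESR1KO through PMSG-treated ESR1KO and WT to PMSG-treated WT. In Fgfrl1 neighbours overlapped within each genotype, and in Vegfd only the ESR1KO groups did. For Bmp5 the order was WT, ESR1KO, PMSG-treated WT and PMSG-treated ESR1KO, and only the last did not overlap its neighbour.

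The genes with the most similar pattern were listed as a description, by Pearson correlation of log2 signals over the 12 arrays against 1817 other located genes. The 12 arrays fall into 4 groups, and all located genes were chosen by the study as changed between these groups. Fgf1 was most like Cyp2f2 (0.993), Bche (0.988) and Mmp10 (0.985). Fgf18 was most like Serpina1b (0.987), Palld (0.987) and Rnf125 (0.984). Pdgfc was most like Scara5 (0.992), Abca5 (0.987) and Ndrg1 (0.986), Pdgfd like Jam2 (0.981), Casp12 (0.971) and Capn6 (0.970), and Pdgfra like F2r (0.973), Dhrs3 (0.971) and Frem1 (0.969). For Met these were Cyp4v3 (0.982), Gpr160 (0.9748) and Gsta3 (0.972). For the 2 genes lower in ESR1KO they were Mrps34 (0.981), Pdia5 (0.968) and Bcat1 (0.966) with Fgfrl1, and Ppargc1b (0.968), Coro1c (0.965) and Cav1 (0.964) with Vegfd. Bmp5 had the lowest values, with Nrn1l (0.933), 2700046A07Rik (0.922) and Ahctf1 (0.921).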

How the data were processed

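Oviductal RNA was measured on 12 Affymetrix arrays. The deposited values are log2 signals that the authors made in Partek 6.6. Background was corrected by GC-RMA, arrays were quantile-normalized and probes summarized by median polish. No detection calls or depth were used. Of 45101 probe sets, 34958 had 1 gene symbol, 932 several and 9211 none.

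Only the 3 columns of untreated ESR1KO are in the order of the probe set names, and the other 9 share a different order (correlation between the sets -0.146 to -0.123, within the 9 from 0.959 to 0.997). Rows were therefore located with the fold changes and p-values of the study's list of changed genes, used only as a row key and printed nowhere. All 1997 rows held here were located, at a largest log2 distance of 7.92e-05 and with p-values within 0.298%. The symbol, not used in the match, agreed in 1818 of 1827. For 35 rows a second untreated ESR1KO candidate existed, and for none of the 9 genes.

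limma 3.58.1 in R 4.3.3 (moderated variance with a trend, prior degrees of freedom 2.87) was fitted to 9 arrays for PMSG-treated WT versus WT. For comparisons with untreated ESR1KO it was fitted to the located rows of 12 arrays. Benjamini-Hochberg adjustment ran over 45101 tests. The row matching and the fits were tested on simulated data. Each located gene of 5 pathway lists is named, with the 3 genes most like each of the 9. The 9 genes and the lists were chosen with earlier results of these data known. Promoters are from RefSeq. Alternatives were no variance trend, an unmoderated model, a mean signal of at least 4, repeated quantile normalization, median centring, a replicate block, no fold minimum, the 6 arrays compared, the prior of the located rows and each array left out.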

Additional observations from a re-analysis of the deposited data

How the results depend on the processing

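For ESR1KO versus WT the number of the 9 genes called was 4. It was 1 in the methods' unmoderated model and 1 with only the 6 arrays compared. With 1 array left out it ranged from 1 to 5. For PMSG-treated WT versus WT the number was 1, it was 0 in the unmoderated model and 0 with only the 6 arrays, and it ranged from 0 to 1 with 1 array left out. For PMSG-treated ESR1KO versus ESR1KO it was 0 in all alternatives run, and for the interaction 0 to 1. After PMSG, 8 to 9 genes were at least 2-fold apart between genotypes with 1 array left out. No gene reversed a called direction under any alternative run, and all 9 genes were located at the same probe set when the symbol was required. In the unmoderated model the calls of Fgf18, Pdgfra and Vegfd in ESR1KO versus WT were lost (adjusted p = 0.136, 0.109 and 0.0708), and with the 6 arrays those of Pdgfc, Pdgfra and Vegfd (0.0658, 0.155 and 0.0655). The cause was not tested. The call of Fgf18 was also lost without a variance trend (0.0507) and with quantile normalization repeated (0.0532). With 3 arrays a group and no detection calls, precision is limited, and weak signals most of all.

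Replicate numbers were shared by all groups. Same-numbered arrays deviated together in some pairs only (correlations from -0.124 to 0.356). Differently numbered arrays were not compared in this way, so these values cannot decide whether the numbers pair the arrays. The main fits took the arrays as unpaired. A replicate block gave 2 calls for ESR1KO versus WT and 0 for PMSG-treated WT versus WT, and the counts of the 9 genes in PMSG-treated ESR1KO versus ESR1KO and in the interaction stayed at 0. Of the other 17 pathway genes, the block ended the call of Fgfbp1 in ESR1KO versus WT (adjusted p = 0.0642) and added a call of Pdgfrl in PMSG-treated WT versus WT (0.0461).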

Other observations

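Signals of pathway genes that were not located in the other groups can be given for the 3 untreated ESR1KO arrays, whose rows follow the probe set names. Of the 114 list genes on the array, 82 had a mean of at least 4 in their highest probe set, namely 23 of 42 in the FGF list, 7 of 7 in the PDGF list, 13 of 15 in the VEGF and angiopoietin list, 7 of 9 in the HGF and MET list and 32 of 41 in the BMP list. Partners of the 9 genes were among them. Hgf, the ligand of MET, had log2 signals of 8.17, 8.11 and 6.52 in its highest probe set. Pdgfrb, the receptor of PDGF-DD, had 11.70, 10.73 and 9.76, and Pdgfa, another ligand of PDGFRA, had 9.92, 9.85 and 9.85. Flt4, which encodes VEGFR3, had 6.28, 5.72 and 5.48. Of the FGF receptors, Fgfr1 had 10.27, 9.83 and 10.03 and Fgfr3 had 7.87, 7.88 and 7.76, whereas all 5 probe sets of Fgfr4 were near background. The BMP receptor Bmpr1a had 11.96, 12.02 and 12.40. These values have no WT counterpart here and were not compared.

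Other probe sets of the 9 genes in untreated ESR1KO differed widely in signal for some genes and little for others. The other probe set of Fgfrl1 had a mean of 9.15, beside 9.38 for the one described, and that of Pdgfc 13.10, beside 11.49. Those of Vegfd had means of 6.74 and 6.68, beside 7.46. Those of Fgf1 had 11.03 and 7.54, beside 12.07, and those of Pdgfd 6.41 and 2.93, beside 9.62. Those of Pdgfra had means of 7.51 and 7.97, beside 13.21 for the one described. For Met the other probe set gave 4.802, 7.25 and 7.72, with ESR1KO replicate 1 far below the others. For Bmp5 they had means of 5.65 and 2.11. Fgf18 had 1 probe set.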
